A study of Mus musculus with 16 samples.

Results

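The Platr and Snhg long noncoding RNAs of mouse embryonic stem cells, with 5 further well-known long noncoding RNAs, were described in nascent RNA. Members were the symbols on chr1 to chr19 that begin with Platr (12 genes) or Snhg (15 genes), plus Gas5, Malat1, Neat1, Lncenc1 and Halr1, which gave 32 members among the 24978 symbols of the deposited table. Snhg14 was left out because it is imprinted. The rule used names and no measured value, though it was set with earlier results of these data known.

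A long noncoding RNA is a transcript that is not known to serve as a template for protein. GENCODE vM21 nevertheless types Snhg11 and Platr17 as protein coding. Snhg genes (small nucleolar RNA host genes) and Gas5 carry small nucleolar RNAs in their introns, which guide chemical modification of ribosomal RNA after they are released by splicing; the spliced host RNA is often short-lived. Platr genes (pluripotency-associated transcripts) were named for their expression in pluripotent cells. Malat1 RNA collects in nuclear speckles, Neat1 RNA is the scaffold of paraspeckles, and Lncenc1 and Halr1 are long noncoding RNAs of embryonic stem cells.

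Nascent transcripts had been measured by Bru-seq, in which bromouridine (2 mM for 30 min) is taken up into new RNA that is then pulled down with an antibody. The 16 libraries formed 12 groups. There were 2 libraries each of c.del, ab.del and abc.del, 1 each of ac.del, bc.del, a.del, b.del, 4k.b.c, 680kinv, 100kdel and 245kdel, and 2 of the unedited line F121-9. All were F121-9 hybrid embryonic stem cells, which hold 1 castaneus (cast) and 1 129 copy of each chromosome, grown on gelatin with 2i and LIF. Each edited name ends in a further code in the labels, which do not explain it. They give neither the place of sites a, b and c, nor the edited copy, nor whether libraries of a group were separate cultures, so a p-value speaks of the spread among these libraries, which may be technical. Groups with 1 library have no replicate.

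Reads had been assigned to the 129 or cast copy through SNPs, and the level of a gene is the mean of its 129 and cast values in CPM (the reads of that copy per 1000000 in its column). Depth was 8.96 to 32.0 M assigned reads per library (median 16.4 M), and 3 reads corresponded to 0.0833 to 0.329 CPM of a copy. The 9 embryonic stem cell markers all had a mean of at least 1 CPM and summed to 1610 to 2290 CPM per library. Fibroblast or feeder markers summed to 0 to 1.69 CPM, trophectoderm markers to 0.353 to 3.44 CPM with Hand1 at 0, primitive endoderm markers to 4.84 to 19.0 CPM and primed epiblast markers to 11.3 to 22.4 CPM. In bulk libraries, fewer cells with a transcript and less of it per cell cannot be told apart. In 4 libraries a whole chromosome had an uneven share of the copies: the median 129 share of genes was 99.9% in a.del and 100% in 4k.b.c on chromosome 1, 0.172% and 0.0660% in the same libraries on chromosome 12, and 33.3% in ac.del and 31.1% in c.del replicate 1 on chromosome 3. It was 33.1% in a.del and 34.2% in 4k.b.c on chromosome 8, and 35.0% in 4k.b.c on chromosome 7, where median log2 levels were 0.69, 0.52 and 0.60 above the median library. On chromosome 3, median log2 levels were 0.50 above it in ac.del and 0.23 above it in c.del replicate 1. The sample numbers of the libraries form 2 runs of 8, called deposit blocks here. The second holds ab.del replicate 2, c.del replicate 2, ac.del, a.del, b.del, 4k.b.c, 100kdel and 245kdel, and the first holds abc.del, ab.del replicate 1, c.del replicate 1, bc.del, 680kinv and F121-9. The labels do not say what the runs stand for.

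Start sites are shown for 4 Snhg genes described below, for Gas5 and for Malat1, because small nucleolar RNA hosts are known for starting at a C within a run of pyrimidines. For Gas5, the entry shown is that with the highest start coordinate, which lies inside the Gas5 span used here, from 161034916. Each line gives 40 bases before the annotated start and 20 from it, from RefSeq (GRCm38.p6); capitals mark TATAAA and the unbroken run of C or T that begins at the start, where it has at least 2 bases.
Snhg7 (chr2:26640225-26640284, minus strand): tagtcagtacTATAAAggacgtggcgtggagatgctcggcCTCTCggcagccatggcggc
Snhg8 (chr3:123508317-123508376, minus strand): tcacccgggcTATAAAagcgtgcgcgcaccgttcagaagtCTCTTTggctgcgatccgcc
Snhg5 (chr9:88522878-88522937, minus strand): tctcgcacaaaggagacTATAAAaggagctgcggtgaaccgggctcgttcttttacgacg
Snhg1 (chr19:8723447-8723506, plus strand): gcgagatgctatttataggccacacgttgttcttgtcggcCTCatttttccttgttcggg
Gas5 (chr1:161035126-161035185, plus strand): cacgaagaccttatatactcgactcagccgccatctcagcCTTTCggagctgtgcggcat
Malat1 (chr19:5802653-5802712, minus strand): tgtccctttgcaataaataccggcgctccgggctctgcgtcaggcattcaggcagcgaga

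A C followed by 4 bases of C or T began the transcript in 3 of 29 promoter entries of the members (27 symbols matched), those of Gas5, Snhg7 and Snhg8, and in 2.51% of all 32851 promoter entries. It was in 0 of the 10 Platr entries. TATAAA on either strand within 300 bases was in 7 of the 29 entries, 6 of them Snhg (Snhg1, Snhg3, Snhg5, Snhg7, Snhg8 and Snhg9) and the other Platr5, and in 13.6% of all entries. On the gene's strand it lay wholly between 45 and 21 bases before the start in Snhg7 and Snhg8, in both from position -30, and in 2.01% of all entries. In GENCODE vM21, each of the 15 Snhg members held at least 1 small nucleolar or small Cajal body RNA within its span, 32 in all, while 0 of the 12 Platr members held any.

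Of the 32 members, 27 had a mean level of at least 0.2 CPM and were tested: 14 Snhg, 9 Platr, Malat1, Neat1, Lncenc1 and Halr1. Gas5 (chr1:161034916-161038539), Platr9 and Platr30 were listed at 0 in all 16 libraries, and Platr5 (mean 0.0948 CPM) and Snhg18 (0.171 CPM) were below the limit. Levels count only reads over SNPs, so the zeros do not show that these genes were silent. Per kilobase of gene span, the 14 Snhg members had a median of 13.5 CPM and the 9 Platr members 1.16 CPM, with 0.400 CPM for all 14094 genes tested. Values per kilobase also depend on the SNPs of each gene, whose number was not analysed. Malat1 had the highest mean level per kilobase of all members (281 CPM), followed by Snhg3 (67.9 CPM), Snhg1 (29.6 CPM), Snhg5 (25.6 CPM) and Snhg4 (24.6 CPM). The Platr members with the highest mean level per kilobase were Platr10 (9.81 CPM) and Platr4 (5.49 CPM). Snhg3 lies within the span of Rcc1 and Snhg4 within that of Gm28285, each on the same strand, and Platr26 lies within the span of a row named Mir5098, so reads of these members may belong to the overlapping gene.

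Malat1, at chr19:5795690-5802672, ranged 12.5-fold in level. It had 890 and 524 CPM in abc.del, 650 and 3580 CPM in ab.del, 593 and 2590 CPM in c.del, and 544 and 524 CPM in F121-9. The single libraries had 6100 CPM in b.del, 3990 CPM in ac.del, 3600 CPM in 245kdel, 3260 CPM in 100kdel, 1890 CPM in 4k.b.c, 1520 CPM in bc.del, 622 CPM in 680kinv and 488 CPM in a.del. The 2 libraries of ab.del and the 2 of c.del differed from each other by more than either lower value differed from F121-9. Of the second deposit block, 7 of 8 libraries lay above every library of the first, and a.del lay below every one of them.

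Neat1, at chr19:5824710-5845478 and 22.0 kb from Malat1, ranged less. Its level was 149 and 118 CPM in abc.del, 151 and 259 CPM in ab.del, 109 and 265 CPM in c.del, and 130 and 125 CPM in F121-9. In the single libraries it was lowest in a.del (79.7 CPM) and highest in 4k.b.c (266 CPM), with 227 CPM in b.del and 221 CPM in ac.del. As for Malat1, the ab.del and c.del libraries of the second deposit block were the higher ones and a.del was the lowest library of all.

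Lncenc1, at chr13:97434970-97497664, had 114 and 154 CPM in abc.del, 96.0 and 305 CPM in ab.del, 81.8 and 440 CPM in c.del, and 170 and 193 CPM in F121-9. Its 8 libraries of the second deposit block, at 305 to 457 CPM, all lay above the 8 of the first, at 81.8 to 262 CPM. A narrower row of the deposited table, from 97482701 to the same end, held 99.4% of the Lncenc1 reads, so nearly all reads came from the last 15.0 kb. Halr1, at chr6:52102949-52113684, had 5.78 and 5.63 CPM in abc.del, 11.6 and 25.3 CPM in ab.del, 11.3 and 16.7 CPM in c.del, and 8.27 and 12.5 CPM in F121-9. Both abc.del libraries lay below both of F121-9, and the highest Halr1 level was in 4k.b.c (63.7 CPM), followed by a.del (28.8 CPM). Gas5 was listed at 0 in every library, so no correlation could be computed for Gas5 with Snhg1.

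**Figure D1:**
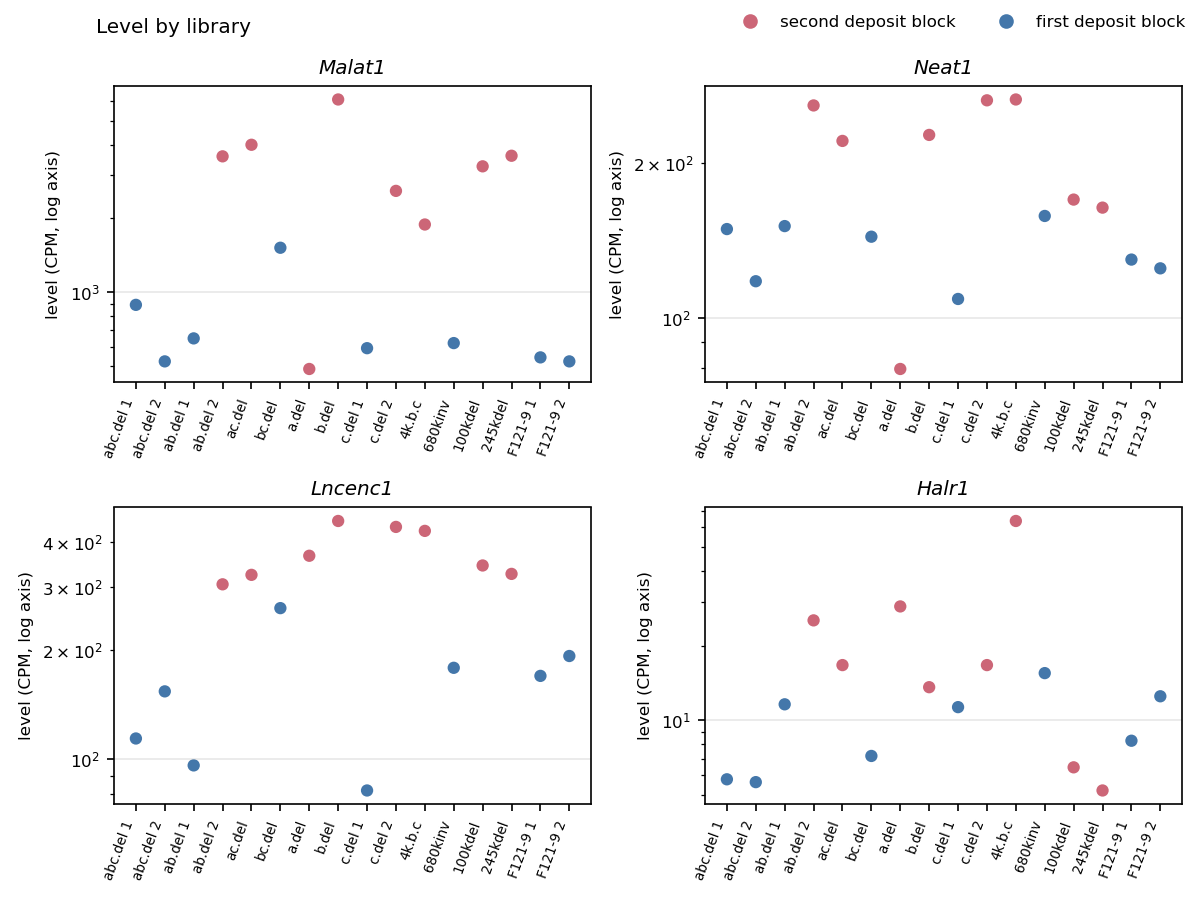
Level of Malat1, Neat1, Lncenc1 and Halr1 in each library (CPM, log axis), edited libraries from the left and F121-9 at the right, colored by deposit block. Malat1 lies between 488 and 6100 CPM, and the 8 second-block Lncenc1 levels (305 to 457 CPM) lie above the 8 first-block levels.

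Among the host genes with the highest levels, Snhg4 had 132 and 116 CPM in abc.del, 117 and 151 CPM in ab.del, 118 and 191 CPM in c.del, and 93.0 and 69.2 CPM in F121-9. Snhg3 had 139 and 128 CPM in abc.del, 108 and 129 CPM in ab.del, 109 and 173 CPM in c.del, and 98.5 and 95.5 CPM in F121-9. Snhg1 had 88.2 and 68.8 CPM in abc.del, 76.2 and 97.8 CPM in ab.del, 85.7 and 113 CPM in c.del, and 62.6 and 61.4 CPM in F121-9. In all 3 genes every library of abc.del, ab.del and c.del lay above both F121-9 libraries. Snhg17 had 51.8 and 55.2 CPM in abc.del, 33.6 and 94.7 CPM in ab.del, 40.6 and 108 CPM in c.del, and 30.4 and 33.0 CPM in F121-9. Platr10 had 67.1 and 54.6 CPM in abc.del, 59.0 and 105 CPM in ab.del, 78.0 and 103 CPM in c.del, and 46.1 and 44.2 CPM in F121-9. Platr22 had 51.8 and 68.5 CPM in abc.del, 61.8 and 46.7 CPM in ab.del, 61.3 and 62.2 CPM in c.del, and 40.8 and 40.9 CPM in F121-9. These 3 also lay above F121-9 in every library of the 3 groups. Shares of all genes in such a position are given below by group. Among members with a mean of at least 10 CPM, the range over libraries was widest for Snhg11 (3.95 to 52.9 CPM, 13.4-fold), ahead of Malat1 (12.5-fold) and Halr1 (12.2-fold).

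The first comparison asked whether any member differed between libraries labelled as deletions of the lettered sites and the unedited line. Between abc.del and F121-9, 0 of 27 members passed an adjusted p of 0.05 by limma over 14094 genes, where 0.220% of all genes passed; 5 members had an unadjusted p under 0.05, against 10.3% of all genes. For ab.del, 0 of 27 passed (0.0497% of all genes, 0.00710% higher and 0.0426% lower) and 5 had an unadjusted p under 0.05 (7.80% of all genes). For c.del, 0 of 27 passed (0.0497% of all genes) and 11 had an unadjusted p under 0.05 (9.44% of all genes). By edgeR the count of members was also 0 in each, and by DESeq2 it was 1 in abc.del, 1 in ab.del and 2 in c.del (2.54%, 1.33% and 1.58% of all genes by DESeq2). The median log2 difference of the members was 0.47 in abc.del, 0.56 in ab.del and 0.80 in c.del, with 0.04, 0.08 and 0.09 for all genes. The 3 comparisons share the F121-9 libraries. All F121-9 libraries are of the first deposit block, as are both abc.del libraries, while ab.del and c.del have 1 library in each.

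By position alone, 17 of the 27 members had both abc.del libraries above both of F121-9 (29.0% of all genes) and 5 had both below (24.9%). For ab.del the counts were 16 above (22.7% of all genes) and 1 below (18.3%), and for c.del they were 16 above (22.5%) and 0 below (16.5%).

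The members with the smallest p were Platr genes. Platr8 had 2.22 and 3.50 CPM in abc.del, 2.53 and 3.72 CPM in ab.del, 2.48 and 1.75 CPM in c.del, and 0.846 and 0.215 CPM in F121-9. Its log2 difference from F121-9 was 2.40 in abc.del (SE 0.62, limma adjusted p = 0.213) and 2.54 in ab.del (SE 0.62, limma adjusted p = 0.291). It passed by DESeq2 in both (adjusted p = 0.0229 and 0.0265). The abc.del difference was 3.20 without F121-9 replicate 1 and 1.61 without F121-9 replicate 2, so the lower F121-9 library sets much of its size. Platr4 had 36.5 and 26.9 CPM in abc.del, 32.0 and 36.0 CPM in ab.del, 38.6 and 38.7 CPM in c.del, and 14.0 and 19.7 CPM in F121-9. Every library of the 3 groups was above F121-9, and the log2 difference was 0.91 in abc.del (SE 0.26, limma adjusted p = 0.244), 1.03 in ab.del (adjusted p = 0.305) and 1.22 in c.del (adjusted p = 0.203; 0.0302 by DESeq2). Platr4 lies on chromosome 3, whose genes had a median log2 level 0.23 above the median library in c.del replicate 1; without that library the c.del difference was 1.22.

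Among host genes, Snhg12, which holds 4 small nucleolar RNAs, had 15.9 and 16.7 CPM in abc.del, 12.3 and 15.1 CPM in ab.del, 13.6 and 24.8 CPM in c.del, and 8.78 and 8.25 CPM in F121-9. The rows of those small RNAs, which lie within the Snhg12 span, summed to a mean of 9.05 CPM beside 14.2 CPM for Snhg12, and their part in its level was not tested. The abc.del difference of Snhg12 was 0.93 (SE 0.33, limma adjusted p = 0.351). Snhg5 had 34.8 and 30.5 CPM in abc.del, 28.5 and 62.5 CPM in ab.del, 44.0 and 97.1 CPM in c.del, and 24.7 and 22.3 CPM in F121-9. Its c.del difference was 1.47 (SE 0.42, limma adjusted p = 0.359; 0.0238 by DESeq2). Platr10, on chromosome 3 too, had the next smallest p in ab.del (0.80, SE 0.29, limma adjusted p = 0.511) and c.del (0.98, SE 0.29, limma adjusted p = 0.365). The F121-9 values of Snhg12, Snhg5 and Platr10 were below every library of the 3 groups. So were those of Snhg4, Snhg3, Snhg1, Snhg17, Platr22, Platr4, Snhg6, Snhg7, Snhg9, Snhg10 and Platr8. How many of all genes had this position in the 3 groups at once was not counted. By single group, 29.0% of all genes were above F121-9 in abc.del, 22.7% in ab.del and 22.5% in c.del.

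With deposit block as a covariate, 6 members passed in abc.del by limma, where 4.76% of all genes passed. Snhg7 (0.75), Snhg17 (0.75), Snhg12 (0.93), Platr4 (0.91) and Platr8 (2.40) were higher, and Platr14 fell by 1.09 on the log2 scale. All libraries of abc.del and F121-9 are of the first block, so these estimates were the same as without the covariate. Only the estimate of the spread changed. In that fit 3 members passed in c.del (1.47% of all genes), Platr4 (1.17) and Snhg5 (0.90) higher and Platr14 lower (-1.49), and 0 passed in ab.del (1.43% of all genes). In a fit of abc.del and F121-9 alone, Platr14, Snhg17 and Snhg12 passed, as did 4.25% of all genes. Platr14 had 13.8 and 23.1 CPM in abc.del, 18.9 and 52.0 CPM in ab.del, 12.1 and 50.7 CPM in c.del, and 35.7 and 40.7 CPM in F121-9. In ab.del and in c.del, its first-block library lay below F121-9 and its second-block library above.

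The interaction asks whether the difference of abc.del departs from the sum of those of ab.del and c.del. For it, 0 of 27 members passed by limma (0.00710% of all genes), 7 had an unadjusted p under 0.05 (4.90% of all genes), and edgeR and DESeq2 called 0 members. The members' median was -0.99 (all genes -0.14), and 26 of the 27 estimates were below 0. The share of all genes with an estimate below 0 was not counted. Smallest in p were Platr4 (-1.33, SE 0.36), Halr1 (-2.00, SE 0.59) and Platr10 (-1.37, SE 0.41), each with a limma adjusted p of 0.882. Here too the blocks differ, since the second-block libraries are in ab.del and c.del and none is in abc.del or F121-9. With deposit block as a covariate, 0 members passed, and the estimates were -1.24 for Platr4, -1.16 for Halr1 and -0.75 for Platr10.

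The 12 libraries whose labels name lettered sites alone, or none, were also compared by site. Between libraries whose label names site a and those whose label does not, 0 of 27 members passed by limma (0.0142% of all genes) and 3 had an unadjusted p under 0.05 (8.84%). For site b, 0 passed (0% of all genes) and 1 had an unadjusted p under 0.05 (5.09%), and for site c, 0 passed (0%) and 2 had an unadjusted p under 0.05 (3.26%). In each of the 3, edgeR and DESeq2 called 0 members. For site a the smallest p were those of Snhg20 (log2 difference 0.96, limma adjusted p = 0.518), Platr4 (0.65) and Snhg10 (0.93). Platr4 was highest in ac.del (57.3 CPM), whose label names site a and whose chromosome 3 genes had a median log2 level 0.50 above the median library. The part of the chromosome in the Platr4 difference was not tested. For site b they were those of Platr26 (-1.22, limma adjusted p = 0.973), Snhg20 (-0.78) and Halr1 (-0.70), and for site c of Platr20 (-0.42), Snhg9 (1.09) and Halr1 (-0.66), each with a limma adjusted p of 1.00. Snhg20 ranged from 2.86 CPM in bc.del to 23.5 CPM in a.del, and Snhg9, which overlaps Rps2 on the opposite strand, reached at most 0.720 CPM. Snhg10 ranged from 0.451 to 2.88 CPM.

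The other 4 edits have 1 library each and no test. Above both F121-9 libraries were 25 of 27 members in 4k.b.c (49.6% of all genes), 20 in 680kinv (35.2%), 23 in 100kdel (53.6%) and 23 in 245kdel (54.4%). Below both were 0, 2, 2 and 1 members (33.2%, 29.1%, 22.9% and 23.3% of all genes). Snhg11 had 52.9 CPM in 100kdel and 49.3 CPM in 245kdel, 5.87 and 5.47 times the F121-9 mean of 9.01 CPM (6.49 and 11.5 CPM). Platr14 had 92.8 CPM in 100kdel and 69.9 CPM in 245kdel, 2.43 and 1.83 times its F121-9 mean. Halr1 was low in these libraries, with 6.46 CPM in 100kdel and 5.21 CPM in 245kdel, below both F121-9 values. In 4k.b.c Halr1 was at 6.13 times its F121-9 mean of 10.4 CPM and Snhg11 at 4.36 times its own. In 680kinv, the edit deposited in the first block, Malat1 was at 1.17 and Lncenc1 at 0.985 times the F121-9 mean.

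**Figure D2:**
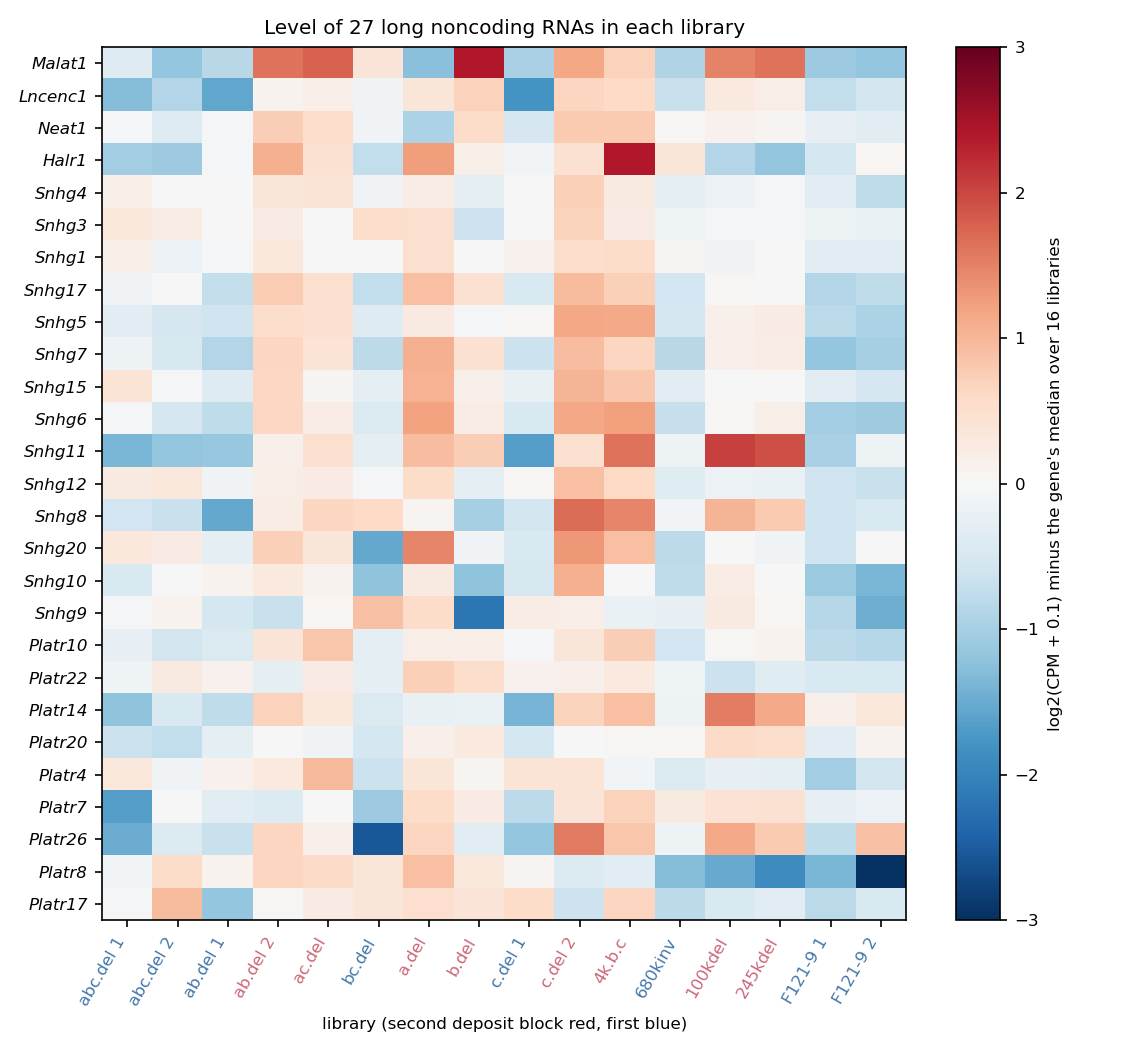
Log2(CPM + 0.1) of the 27 tested members minus each gene's median over 16 libraries, one column per library with F121-9 at the right and one row per gene (named genes, Snhg, Platr, each by mean level). Names of second-block libraries are red and of first-block libraries blue, and most Snhg rows are above their median in the red columns.

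Since libraries of the same group differed by deposit block, the blocks were compared, a comparison added after the data were seen. The ab.del and c.del libraries of the 2 blocks also differ in the unexplained code of their labels. Within these groups, a difference of block and one of that code cannot be told apart. In ab.del, replicate 2 (second block) was above replicate 1 (first block) in 24 of 27 members and in 60.8% of all genes, with a median log2 difference of 1.01 for members and 0.19 for all genes. In c.del, replicate 2 was above replicate 1 in 24 of 27 members and in 69.0% of all genes, with medians of 1.16 and 0.38. In both groups at once, replicate 2 was the higher in 22 of 27 members, 13 of 14 Snhg and 5 of 9 Platr among them, and in 51.9% of all genes. Malat1 was 5.51 times higher in ab.del replicate 2 and 4.37 times higher in c.del replicate 2 than in replicate 1 of the same group, and Lncenc1 was 3.18 and 5.38 times higher. Over all 16 libraries, 6 of 27 members had every second-block library above every first-block one (5.95% of all genes), and 0 the reverse (1.38%). The 6 are Snhg6, Snhg7, Snhg11, Snhg17, Platr10 and Lncenc1.

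In a limma fit over the 12 lettered or unedited libraries with terms for sites a, b and c, 15 of 27 members (55.6%) passed between second and first block, all 15 higher in the second. Of all genes, 24.6% passed, 17.6% higher and 6.99% lower. By family, 8 of 14 Snhg members, 3 of 9 Platr members, and Malat1, Neat1, Lncenc1 and Halr1 passed. The members' median log2 difference was 0.77, against 0.15 for all genes. With median centring, which moves the median of all genes to -0.13, 9 members passed, all higher (25.0% of all genes, 7.66% higher and 17.3% lower). There 30.7% of the called genes of the table were higher in the second block, against 71.5% without centring, 48.6% by edgeR, 47.8% by DESeq2 and 49.9% after quantile normalization. The calls of members were 11 by edgeR (22.5% of all genes, 10.9% higher) and 13 by DESeq2 (29.0% of all genes, 13.8% higher), again all higher.

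The smallest p was that of Snhg7, the host of Snora17 and Snora43 with the start site shown above. It had 68.4 CPM in ab.del replicate 2, 83.5 CPM in c.del replicate 2, 58.3 CPM in ac.del, 90.9 CPM in a.del and 59.6 CPM in b.del, against 39.1 and 31.1 CPM in abc.del, 23.8 CPM in ab.del replicate 1, 27.8 CPM in c.del replicate 1, 25.2 CPM in bc.del and 19.6 and 21.9 CPM in F121-9. The groups of libraries do not overlap, and the log2 difference was 1.44 (SE 0.16, limma adjusted p = 0.000299). Snhg17 spanned 56.0 to 108 CPM in the second block and 30.4 to 55.2 CPM in the first (1.25, SE 0.15, limma adjusted p = 0.000363). Platr10 spanned 81.8 to 142 CPM in the second block and 44.2 to 78.0 CPM in the first (0.90, SE 0.13, limma adjusted p = 0.000763). These do not overlap either. Malat1 had the largest difference (2.38, SE 0.35, limma adjusted p = 0.000836), although its ranges of 488 to 6100 and 524 to 1520 CPM do overlap, through a.del.

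Snhg5 spanned 42.3 to 97.1 CPM in the second block and 22.3 to 44.0 CPM in the first (1.07, limma adjusted p = 0.000988). Snhg6 spanned 33.4 to 76.6 CPM in the second block and 15.5 to 31.7 CPM in the first (1.33, limma adjusted p = 0.00148). Snhg11 spanned 14.1 to 52.9 CPM in the second block and 3.95 to 11.5 CPM in the first (1.52, limma adjusted p = 0.00184). Of these, Snhg5 alone overlaps, by its lowest second-block library. Lncenc1 differed by 1.52 (SE 0.23, limma adjusted p = 0.00106), Halr1 by 0.99 (limma adjusted p = 0.00576) and Platr20 by 0.44 (limma adjusted p = 0.0143), the last losing its call by edgeR (0.28), DESeq2 (0.27), median centring (0.16) and without b.del (0.41). The other 5 that passed were Snhg15, Neat1, Snhg8, Snhg4 and Platr4, at 0.44 to 1.01. Snhg8, Platr4 and Platr10 lie on chromosome 3, whose genes were raised in ac.del of the second block and in c.del replicate 1 of the first. The part of that in their block differences was not tested. The members not past the threshold were at -0.15 (Snhg9) to 1.10 (Platr26). Snhg3 was at 0.06 (SE 0.19), with 70.5 to 173 CPM in the second block and 95.5 to 156 CPM in the first.

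**Figure D3:**
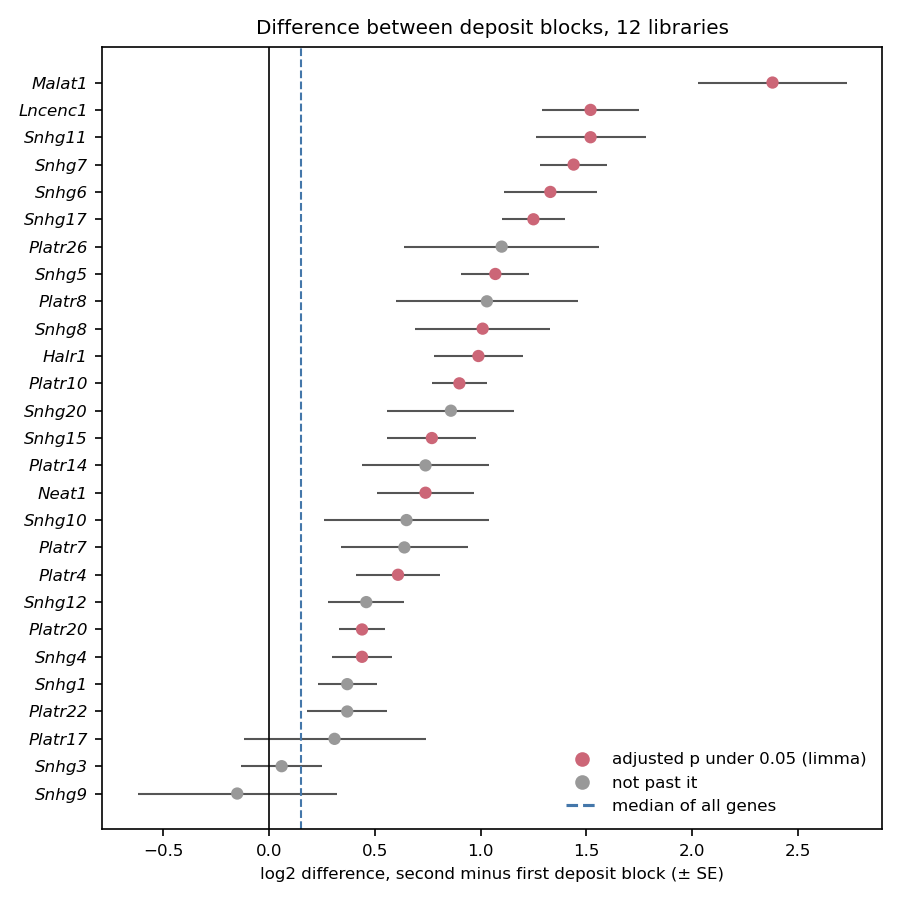
Log2 difference of each tested member between the second and the first deposit block (points, ± SE, 12 libraries, limma), red where the adjusted p is under 0.05, with the median of all genes (0.15) as a dashed line. Malat1 is highest at 2.38, and Snhg9 is lowest at -0.15.

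Other genes of the same pathways were counted between the blocks in the same limma fit, in which 17.6% of all genes were higher, 6.99% were lower and the median was 0.15. Of 25 protein-coding hosts of small nucleolar RNAs, mostly ribosomal protein and translation factor genes, 20 were higher in the second block and 0 lower, with a median of 0.87. Examples are Ncl (nucleolin, 1.45, adjusted p = 0.000155), Tpt1 (1.58, adjusted p = 0.000542), Taf1d (0.87) and Rps13 (1.31). Of 15 proteins of small nucleolar ribonucleoproteins and their assembly factors, 7 were higher and 1 lower (median 0.21); Gar1 (1.02) and Nop56 (1.32), core proteins of the H/ACA and C/D particles, were higher. Of 12 pluripotency transcription factors, 7 were higher and 0 lower (median 0.59), among them Sox2 (1.07) and Tbx3 (1.08). Of 13 genes of nonsense-mediated decay, which degrades many spliced host RNAs, 5 were higher and 3 lower, with Smg5 at 0.70 and Smg6 at -0.65. Of 13 paraspeckle and speckle proteins, 4 were higher, including Sfpq (0.55), a core paraspeckle protein, and 1 was lower, Srrm2 (-1.62), with a median of 0.17. For the 3 deletion groups set against F121-9, for the interaction and for each site, 0 genes of these 5 lists passed by limma. Edit and block are partly confounded: ac.del, a.del, b.del, 4k.b.c, 100kdel and 245kdel have libraries in the second block alone, and for these the difference of the edit from F121-9 and that of the block cannot be told apart.

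Malat1 and Neat1 levels, as log2(CPM + 0.1), were correlated over the 16 libraries (Pearson r = 0.79, permutation p = 0.000300; Spearman rho = 0.82, permutation p = 0.000240; 100000 permutations, two-sided). Theirs was the sole relation computed, so adjusted values are the same. Without ac.del and b.del, the libraries farthest from the Malat1 median, r was 0.76 (permutation p = 0.00129). Within the first block of 8, r was 0.45 (permutation p = 0.275) and rho 0.60, and within the second r was 0.73 (permutation p = 0.0931) and rho -0.05. The relation did not pass within either block. In the second, a.del was lowest in both genes.

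Neat1 is made as a short and a long RNA from the same start. The deposited table has a short row of 3185 bases (chr19:5842296-5845480) at the start of the gene beside the long one, and reads of the long RNA also fall in it. The short row held 53.1% and 44.1% of Neat1 reads in abc.del, 32.4% and 67.2% in ab.del, 34.7% and 71.5% in c.del, and 30.4% and 30.6% in F121-9. The Wilson 95% interval was 70.6% to 72.4% in c.del replicate 2 and 33.4% to 36.0% in c.del replicate 1, and it covers counting error alone. The difference within c.del is therefore far beyond counting error. In level, the short row had 56.2 to 189 CPM in the second block and 37.8 to 79.3 CPM in the first, with medians of 133 and 44.2 CPM. The rest of the gene had 23.5 to 127 CPM in the second block and 66.1 to 120 CPM in the first, with medians of 89.7 and 85.5 CPM. The medians of the blocks thus lay apart for the start of the gene and close together for the rest. In a.del the rest was lowest of all (23.5 CPM), while 70.6% of reads lay in the short row.

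**Figure D4:**
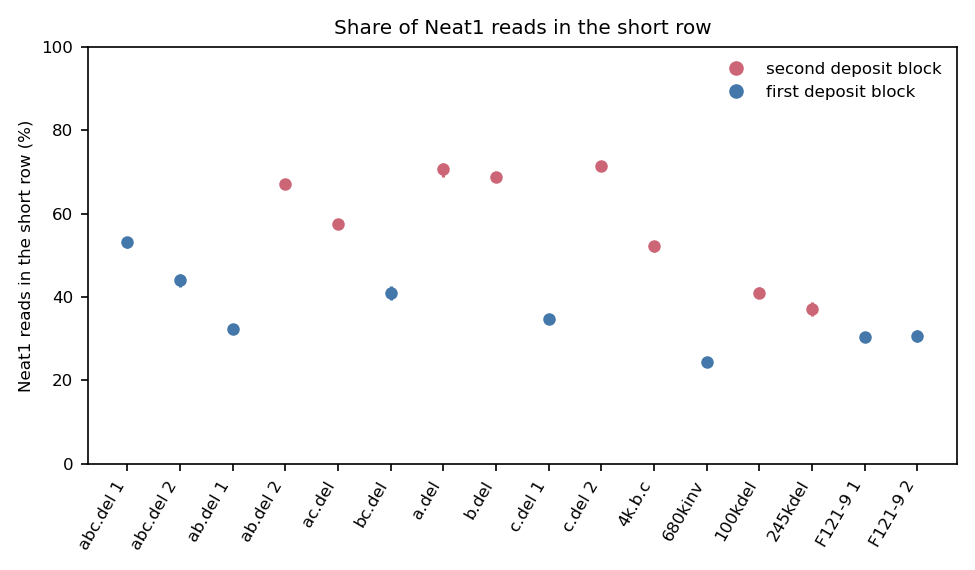
Percent of Neat1 reads within the short row of the table in each library, with 95% Wilson intervals (counting error alone; most are smaller than the point), F121-9 at the right. Values run from 24.3% in 680kinv to 71.5% in c.del replicate 2, with 30.4% and 30.6% in F121-9.

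The 129 and cast copies were compared within libraries. In a limma test of log2 129 minus log2 cast over the 16 libraries, 16 of 27 members passed, 11 toward 129 and 5 toward cast; of 13583 genes of chr1 to chr19, 46.8% passed, 24.7% toward 129 and 22.1% toward cast. Among Platr members, 5 of 9 passed and all 5 were toward 129, and among Snhg members 5 of 14 were toward 129 and 2 toward cast. The 12 groups share the F121-9 origin, so the libraries are not independent samples of the strains.

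Lncenc1 came almost wholly from the 129 copy, from 98.6% in 100kdel to 99.8% in bc.del, and 99.5% and 99.2% in F121-9. F121-9 replicate 1 had 8693 reads from 129 and 36 from cast. The log2 difference was 7.23 (SE 0.63, limma adjusted p = 5.92e-08). Of 10840 genes of chr1 to chr19 with a mean of at least 1 CPM, 51 (0.470%) had a median 129 share of at least 95%. Neighbouring genes had lower shares. The median 129 share was 55.3% for Enc1, 65.9% for Arhgef28 and 54.1% for Utp15. Because nearly all reads lay in the last 15.0 kb, the first 60 bases of the 2 GENCODE transcripts that begin there are shown, with those of the transcript that begins at the start of the wide row, in mm10, plus strand, with no base marked.
Lncenc1-202 (chr13:97482701-97482760): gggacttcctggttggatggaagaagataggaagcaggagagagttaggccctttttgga
Lncenc1-203 (chr13:97482955-97483014): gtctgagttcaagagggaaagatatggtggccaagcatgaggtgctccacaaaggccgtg
Lncenc1-201 (chr13:97434970-97435029): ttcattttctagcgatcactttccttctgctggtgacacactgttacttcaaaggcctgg

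The next highest 129 shares were those of 4 Platr genes. Platr26 had a median share of 82.9% (range 71.3% to 100%; 2.39, limma adjusted p = 7.62e-09), on as few as 9 reads in a library, and the overlapping Mir5098 row had 60.4%, with Itga6 at 66.9%, Hat1 at 61.7%, Pdk1 at 51.0% and Metap1d at 50.5% beside it. Platr7 had a median of 77.4% (54.8% to 89.2%; 1.77, limma adjusted p = 2.94e-07), and of its neighbours Tcp11l2 had 73.8%, Ckap4 71.6%, Nuak1 60.4% and Polr3b 48.4%. Platr20 had a median of 74.5% (59.7% to 92.8%; 1.65, limma adjusted p = 1.77e-05); of its neighbours, Zfp354a had 81.6%, Col23a1 58.5%, Clk4 57.2% and Zfp2 51.2%. Platr14 had a median of 71.6% (54.5% to 78.9%; 1.19, limma adjusted p = 3.25e-06), and of its neighbours D430041D05Rik had 74.1%, Cstf3 53.3%, Hipk3 52.2% and Tcp11l1 47.7%. All 4 were above 50% in 16 of 16 libraries. Among host genes, Snhg7 had a narrow share, 59.4% to 65.0% (median 61.9%; 0.71, SE 0.04, limma adjusted p = 1.19e-10), while Snhg5 (median 65.0%), Snhg20 (63.7%), Snhg17 (57.3%) and Snhg15 (56.1%) were also toward 129, as was Platr10 (57.0%).

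Toward cast, Snhg1 had a 129 share of 38.0% to 45.9% (median 42.9%; -0.41, SE 0.03, limma adjusted p = 3.53e-08), below 50% in 16 of 16 libraries. Neat1 had a median share of 46.0% (-0.25, limma adjusted p = 0.000856) and Malat1 47.5% (-0.17, limma adjusted p = 0.00434). Halr1 had 41.8% (34.5% to 56.4%; -0.38, limma adjusted p = 0.0103) and Snhg11 44.1% (35.3% to 53.8%; -0.24, limma adjusted p = 0.0448). Snhg12 (median 47.2%) ran from 36.1% to 58.9% and did not pass. Nor did Snhg9, whose median share of 34.1% was the lowest of all tested members, with shares of 0% to 100% on few reads. Reads that carry the reference base can align more readily, and over all genes 129 took 51.1% to 53.4% of reads per library. In CPM each copy is scaled to 1000000, so most 129 shares are lower in CPM than in reads. For Malat1 in F121-9, 129 had 49.3% and 50.9% of reads, against 46.8% and 48.2% of CPM. The calls toward cast thus hold on the CPM scale, and the copies were not tested in reads.

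Members on the chromosomes with uneven copies followed their chromosome. On chromosome 1, Snhg6 had 3084 reads from 129 and 1 from cast in a.del, and 1649 and 2 in 4k.b.c, against 436 and 344 in F121-9 replicate 1. Platr22 had a 129 share of 99.9% in a.del and 99.8% in 4k.b.c, against 57.9% and 52.4% in F121-9. On chromosome 12, Snhg10 had a 129 share of 1.50% in a.del (1 read of 129 and 60 of cast) and 0 of 27 reads in 4k.b.c, where the Wilson interval reaches 12.5%. On chromosome 3, ac.del and c.del replicate 1 had 129 shares of 36.4% and 41.4% for Platr4, 39.8% and 35.9% for Platr10, and 37.9% and 29.9% for Snhg8, against 54.3% and 51.8%, 56.6% and 58.7%, and 53.0% and 55.9% in F121-9. Without these 4 libraries, an alternative added after the data were seen, 18 members passed between the copies, 14 toward 129 and 4 toward cast, as did 46.8% of all genes, 25.4% toward 129 and 21.5% toward cast.

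**Figure D5:**
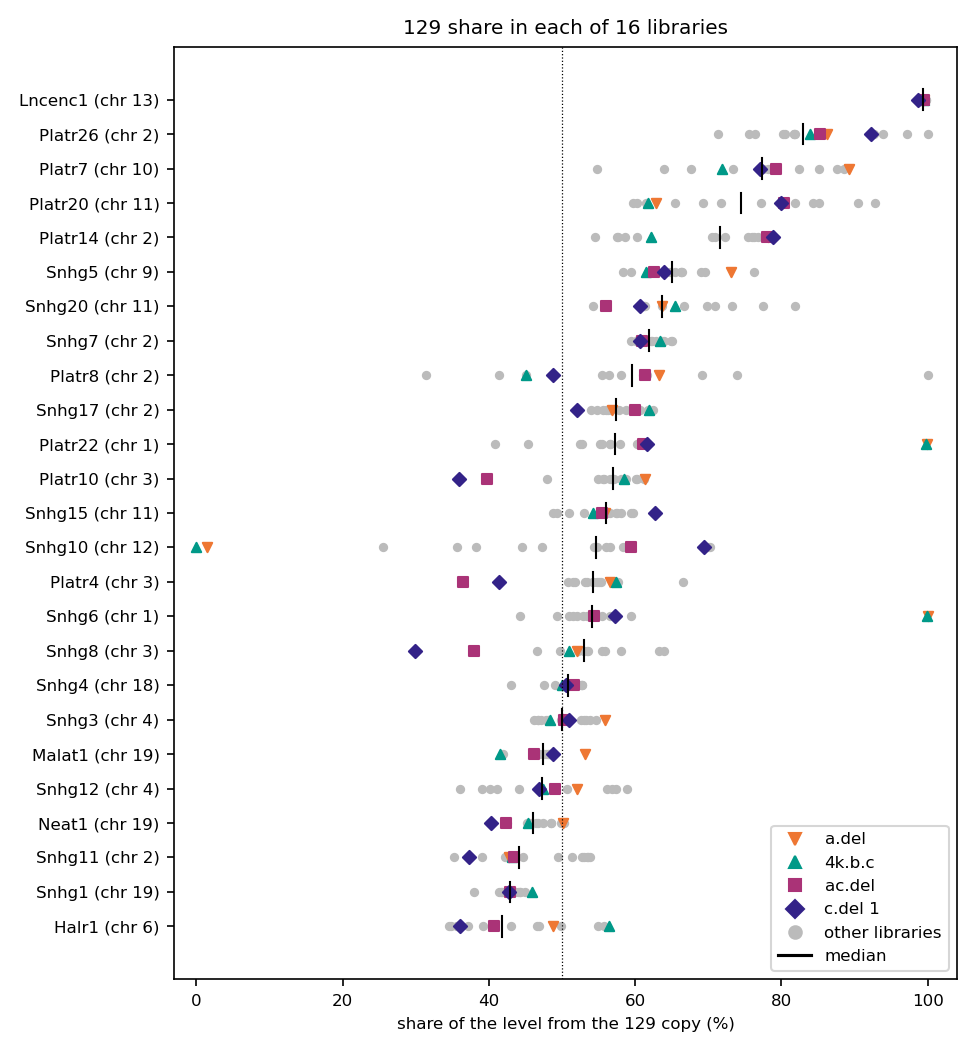
Percent of each member's level that came from the 129 copy, one point per library, for the 25 members with a mean of at least 1 CPM, with the median as a bar and the 4 libraries with uneven chromosomes as colored symbols. Lncenc1 lies at 98.6% to 99.8%, and Snhg6 and Platr22 lie near 100% in a.del and 4k.b.c alone.

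Whether the 129 minus cast difference departed from F121-9 in the lettered groups was tested for genes of chr1 to chr19. In abc.del, ab.del and c.del, 0 of 27 members passed by limma (0% of all genes in each), with 5, 3 and 3 members at an unadjusted p under 0.05 (7.21%, 5.41% and 6.25% of all genes). No count test was run on this difference. Platr20 had a 129 share of 90.5% and 92.8% in abc.del, 85.1% and 84.3% in ab.del, 80.0% and 77.2% in c.del, and 69.3% and 61.5% in F121-9. Every library of the 3 groups lay above F121-9, and the share of all genes in that position was not counted. Of the single lettered libraries, bc.del (81.8%), ac.del (80.3%) and b.del (71.8%) lay above both F121-9 values, while a.del (62.9%) lay between them. The Platr20 difference from F121-9 was 2.51 in abc.del (SE 0.29, limma adjusted p = 0.238) and 1.54 in ab.del (SE 0.29, limma adjusted p = 0.817). Leaving out any 1 library kept the abc.del difference at 2.26 to 2.76. Platr14 had a 129 share of 76.0% and 72.3% in abc.del, 76.8% and 75.4% in ab.del, 78.9% and 70.9% in c.del, and 58.6% and 60.2% in F121-9. Its difference was 0.96 in abc.del (limma adjusted p = 0.533), 1.12 in ab.del (limma adjusted p = 0.817) and 1.03 in c.del (limma adjusted p = 0.752). The 10 libraries whose labels name lettered deletions had Platr14 shares of 70.5% to 78.9%, while 4k.b.c, 680kinv, 100kdel and 245kdel had 54.5% to 62.1%. This split was picked after the values were seen and was not tested. How many of all genes divide the libraries in the same way was not counted.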

How the data were processed

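Bru-seq reads of 16 libraries were analysed from 1 deposited table with a 129 and a cast column per library. Per the labels' protocols, 300 ng of labelled RNA gave strand-specific libraries read as 100 bp single ends. Bowtie2, bedtools and mm10 are named in the submitters' processing notes, without versions. The authors deposited CPM: each column sums to 1000000 over all rows, although the table is named for RPKM and length plays no part in its values. Divided by the worth of 1 read, 100% of the values were whole within 0.01; the reads so recovered were used for Wilson intervals and for the count tests of edgeR 4.0.16 and DESeq2 1.42.0.

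The widest row per symbol was used, and 6 segments drawn by the authors were left out. Levels, as log2(CPM + 0.1), of genes with a mean of at least 0.2 CPM were fitted with limma 3.58.1 (R 4.3.3; trended eBayes, two-sided, Benjamini-Hochberg over all genes, adjusted p of 0.05). The fold changes are on that scale and understate changes of low genes. Contrasts of abc.del, ab.del and c.del used the 4 groups with 2 libraries, site and block terms the 12 lettered or unedited libraries, and copies the difference of log2(CPM + 0.1) within libraries. Shares are of CPM, and intervals are of reads. The fit was tested on simulated data. Alternatives were other pseudocounts, filters, scalings, rows, tools, deposit block as a covariate and each library left out. Members, gene lists and tests were chosen with earlier results of these data known. Values by library are given for the 5 named genes, the 6 other members with the highest levels, called members up to 10, the 3 smallest p where fewer than 3 passed, and the 5 highest and lowest 129 shares. Outside this rule, Platr14 levels, the split of Platr14 shares, Snhg20 and Snhg10 ranges and the single edits' examples were chosen after their values were seen. Sequences are from RefSeq and GENCODE vM21. Tables and permutations were made in Python 3.11.15 (pandas 2.3.3, numpy 2.4.6, scipy 1.17.1) and plots with matplotlib 3.10.9.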

Additional observations from a re-analysis of the deposited data

How the results depend on the processing

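Counts of called members in the comparisons by deletion label depended on the model of the blocks and on the tool. Against the 0 of the fit reported, abc.del had 6 with deposit block as a covariate. It had 3 with only the 2 groups compared and 1 by DESeq2. For c.del there were 3 with the covariate and 2 by DESeq2, and for ab.del 1 by DESeq2. In abc.del the covariate changed the estimate of the spread and not the log2 differences. Why the other counts moved was not tested. In the interaction and for sites a, b and c, every alternative run gave 0 members. Between deposit blocks, 9 members passed with median centring against 15, and 10 to 16 with 1 library left out. Between the copies, 13 to 19 members passed over all alternatives, and 14 to 16 with 1 library left out. Leaving out 1 library kept all other counts of members at 0. Over all genes the abc.del count ran from 0 to 671, that of ab.del from 0 to 202 and that of c.del from 0 to 222, beside 31, 7 and 7. Over 75 results of single members (at most 10 called, or the 3 of smallest p, per comparison, and the shares), 1100 of 1116 values kept their direction and their side of the threshold, 10 newly passed, 5 no longer passed, and 1, the share of Snhg1, was 45.1% in reads and 42.9% in CPM; none reversed. Malat1 and Neat1 gave r = 0.45 within the first block and 0.73 within the second, neither past the threshold. No paired analysis was possible because replicate numbers in the labels exist for F121-9 alone. Depth limits Snhg9, Snhg10, Platr8, Platr17 and Platr26, some of whose libraries had under 20 reads, and levels rest on SNPs, whose number per gene was not analysed here.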
